A study of Mus musculus and Homo sapiens with 15 samples.

Results

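INSCRIBE marks the RNAs near a protein in fixed tissue by C-to-U editing, and its edits are read as C-to-T changes and grouped into edit clusters. The regions described here are the edit clusters of mouse brain that the RBFOX2-INSCRIBE list has in common with the list of its control without antibody. Of the 5177 clusters in the RBFOX2-INSCRIBE list before control clusters were subtracted, 319 (6.16%, Wilson 95% interval 5.54% to 6.85%) overlapped a cluster of the enzyme-only list on the same strand by at least 1 nt. They matched 324 of the 4542 enzyme-only clusters. The 319 were split by the buffer-only list of 2092 clusters into 162 that also overlapped it (buffer-listed clusters) and 157 that did not. The 319 were chosen by measured edits of the RBFOX2-INSCRIBE and enzyme-only libraries and split by those of the buffer-only libraries, so edits inside these clusters are given as a description, with no test.

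The tissue was brain of female wild-type C57BL/6J mice, 2 months old, cut into coronal slices of 20 micrometres. The sources differ on whether 1 or 2 animals were used in the study. The labels give paraformaldehyde as the fixative for all 9 libraries used. In RBFOX2-INSCRIBE (3 libraries) slices received a rabbit antibody to RBFOX2 and then APO1-Nb, rat APOBEC1 fused to a nanobody that binds rabbit antibodies. In enzyme-only (3 libraries) they received APO1-Nb and no antibody, and in buffer-only (3 libraries) neither. The labels do not say which slice came from which animal, so p-values measure the spread between these libraries, which may be technical. The 6 human cell line libraries of the series were not used.

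APOBEC1 is a cytidine deaminase that turns C into U in RNA, best known for editing the mRNA of apolipoprotein B, and it acts most readily on a C that follows A or U in AU-rich RNA. RBFOX2 is a splicing regulator of the RBFOX family, which in brain is abundant in neurons and binds UGCAUG. The enzyme-only group measures edits made by APO1-Nb without the antibody, together with changes that need no enzyme. The buffer-only group measures C-to-T changes that are listed without enzyme or antibody.

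Sequences of GRCm38 (mm10) around the edited C with the most edited reads are printed for clusters that carry the main result of each class. The first set is buffer-listed, the second is not. Each line runs 5′ to 3′ on the transcribed strand as DNA with 14 nt on either side, and the capital is the edited C.
Gm26917 (chr17:39843071-39843099, plus strand): gcgaatggcggctgCtcttctcgttctgc
Gm42418 (chr17:39848229-39848257, plus strand): tggctcgctctcccCgtcttgtgtgtgtc
Pisd-ps1 (chr11:3129848-3129876, plus strand): ggagactaccactgCttccactcccccac
Snhg14 (chr7:59447558-59447586, minus strand): acatttcgtcccagCaatcactctccagt
Dlgap1 (chr17:70819500-70819528, plus strand): ggcggcagggcaggCggcattcataaacg
Hjurp (chr1:88265020-88265048, minus strand): gtgtactgagcagtCttccattgcagctc
Sparcl1 site 1 (chr5:104079471-104079499, minus strand): ccgcttcagaaataCgagcagccatgaca
Sparcl1 site 2 (chr5:104079409-104079437, minus strand): catgtgagagaagaCaatggtagtaatta
Sparcl1 site 3 (chr5:104079394-104079422, minus strand): aatggtagtaattaCttcttggtgatata
Gpm6b (chrX:166385729-166385757, plus strand): ataattttcttgaaCttaaactctgagca
Trim37 (chr11:87220160-87220188, plus strand): tgggtagccatctaCtttcattttacttg

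The printed lines are a choice from the named clusters. Over the leading sites of all 18 named clusters, the edited C follows G or C in 6 and U in 2 (Nova1 and Hjurp) of the 8 buffer-listed ones. It follows A in 8 and C in 2 (Mid1 and Slitrk1) of the 10 others. The contrast was smaller over all filtered sites, where A came before 24.0% of 1011 in buffer-listed clusters and 35.9% of 878 in the others. There A or U came before 52.9% and 69.8%.

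Edited reads per library numbered 295672 to 339567 with antibody, 267277 to 290808 with enzyme alone and 193252 to 262593 with buffer alone. These totals are filtered as in the methods of the study, which keep sites with a confidence score above 0.5 and an edited fraction below 0.8. An edited read is a read with T at a listed C. The number of sequenced reads was not used here, so depth is given by these totals and by the cover of each site. Wilson intervals are at 95%, and they and all counts cover counting error only, since reads without molecular identifiers are not independent molecules. Neuron markers of the fixed list (Snap25, Syt1, Rbfox3, Map2 and Gria2) summed to 1470 to 1536 edited reads per library with antibody, 1119 to 1242 with enzyme alone and 783 to 1140 with buffer alone. Astrocyte markers summed to 501 to 654, 439 to 515 and 221 to 340 in the same order, oligodendrocyte markers to 114 to 137, 148 to 163 and 94 to 103, and striatal neuron markers to 541 to 735, 306 to 365 and 220 to 277. Blood and choroid plexus markers had 2 or fewer. Relative to library totals, the median log2 change outside the clusters was 0.55 for striatal markers in RBFOX2-INSCRIBE over enzyme-only (1 of 4 tested was called by edgeR) and 0.68 for astrocyte markers in enzyme-only over buffer-only (0 of 4). In the first comparison it was -0.46 for oligodendrocyte, -0.38 for microglia and -0.27 for oligodendrocyte precursor markers. Neuron markers had 0.14, astrocyte markers 0.05 and endothelial markers -0.0026. In the second the other types lay between -0.05 (neurons) and 0.43 (striatal neurons). RNA level, cell number and the edited fraction all enter an edited read count, and the groups differ in enzyme and antibody. Fewer cells of a type, less RNA per cell and a lower edited fraction therefore cannot be told apart. In each list the coordinates are those of a cluster called in replicate 3, and replicate 3 of RBFOX2-INSCRIBE therefore holds an edit in all 319.

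The 162 buffer-listed clusters held edits in every condition. An edited read was present in 161 to 162 of them with antibody, in 159 to 161 with enzyme alone and in 161 to 162 with buffer alone. The median buffer-listed cluster had 9, 10 and 8 edited reads with antibody, 8, 8 and 7 with enzyme alone and 10, 8 and 7 with buffer alone. Its most edited site was edited in 11.8% to 12.5%, 10.9% to 12.5% and 11.9% to 12.5% of reads in the 3 groups. At the level of the cluster, the median log2 ratio of mean edited reads plus 1 was 0.15 for RBFOX2-INSCRIBE over enzyme-only and -0.04 for enzyme-only over buffer-only, with no scaling to library totals. In 159 of the 162 a cluster was called at the place in all 9 libraries.

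The 157 clusters outside the buffer-only list were sparse. They had a median of 1, 1 and 2 edited reads in the RBFOX2-INSCRIBE libraries, 1 in each enzyme-only library and 0 in each buffer-only library. Edits were found in 135, 126 and 157 of the 157 with antibody, in 128, 118 and 129 with enzyme alone and in 50, 45 and 37 with buffer alone. Counting every listed site in place of filtered sites gave 65, 54 and 43 of 157 in buffer-only. Each buffer-only library lay below every library of the other groups, which the split itself favours. Median log2 ratios were 0.36 for RBFOX2-INSCRIBE over enzyme-only and 0.74 for enzyme-only over buffer-only. In both classes reads are counted over RBFOX2-INSCRIBE coordinates, which favours RBFOX2-INSCRIBE over enzyme-only, also in single clusters. A call in all 9 libraries was made at 5 of these 157 places.

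**Figure D1:**
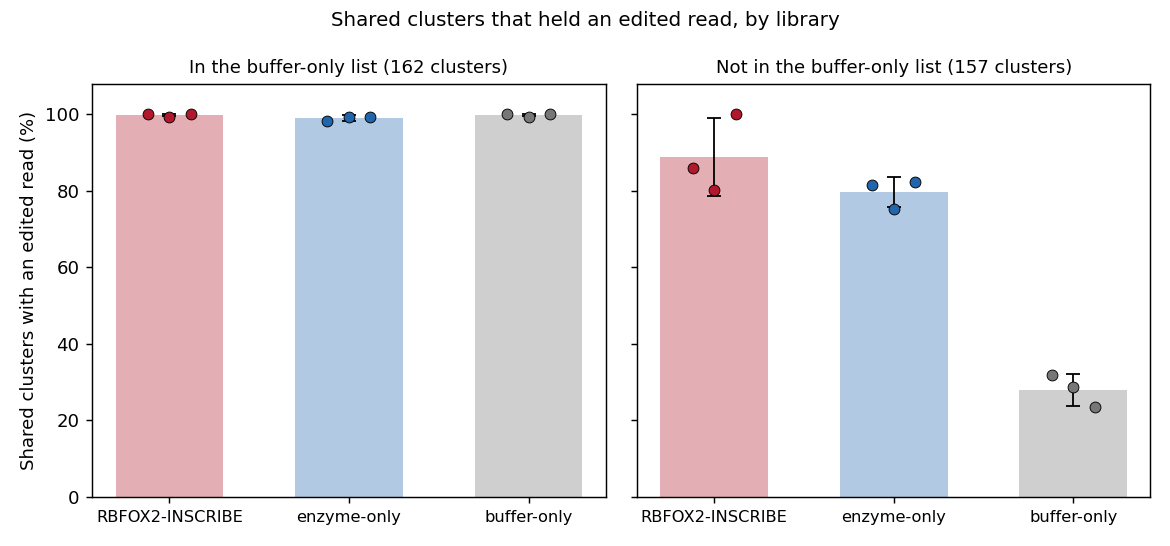
Share of shared clusters with at least 1 edited read (%, y axis) in each library (points) of the 3 groups, with the mean (bars) and SD (error bars, n = 3), for the 162 buffer-listed clusters (left) and the 157 others (right). On the left every library lies above 98%, and on the right the buffer-only libraries lie at 23.6% to 31.9% and the others at 75.2% to 100%.

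Shared clusters took 6.50%, 7.81% and 6.98% of a library's edited reads with antibody, 7.57%, 7.73% and 7.25% with enzyme alone and 9.29%, 10.4% and 9.24% with buffer alone. The share was highest in the buffer-only libraries, which also had the fewest edited reads. Most of it came from 9 clusters in 3 non-coding RNAs, Gm26917, Gm42418 and Rn7s2, which held 86.6% to 89.1% of the edited reads of shared clusters in each library. The remaining 310 clusters took 0.871% to 1.13% of a library's edited reads. The 157 clusters outside the buffer-only list took 0.155%, 0.123% and 0.214% with antibody, 0.120%, 0.130% and 0.116% with enzyme alone and 0.0514%, 0.0444% and 0.0383% with buffer alone.

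Gm26917 (ENSMUSG00000097971.3, chr17:39843013-39846341, plus strand) and Gm42418 lie next to each other on chromosome 17, where RefSeq lists Gm42418 as a synonym of Rn18s-rs5, a gene related to 18S ribosomal RNA. Repeat reads were removed before alignment, so reads that map here are those that passed that step. The leading Gm26917 site (position 39843085 on chromosome 17) was edited in 68.4%, 69.2% and 68.7% of reads with antibody, 69.3%, 69.2% and 68.9% with enzyme alone and 70.1%, 69.0% and 69.6% with buffer alone, at a cover of 9090 to 12711 reads. Group means were 68.8% ± 0.41, 69.2% ± 0.21 and 69.6% ± 0.56 (SD, n = 3), and the groups overlapped. The Gm42418 site (position 39848243) had means of 63.2% ± 0.94, 63.3% ± 0.13 and 64.0% ± 0.90 (SD, n = 3), and the libraries of the 3 groups overlapped there too. Of the 6 sites with the most edited reads among those listed in all 9 libraries, 5 lay in Gm26917, and the 4 that follow its leading site had group means of 1.49% to 4.80%.

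Rn7s2 is a 7S RNA gene, and its kind of RNA forms the core of the signal recognition particle. Its 165-nt cluster (chr12:69361180-69361344, minus strand) held 28 filtered sites in the 9 libraries together, of which 13 were present in all 9. The leading site was edited in 7.41% ± 0.37 of reads in RBFOX2-INSCRIBE, 6.71% ± 0.26 in enzyme-only and 7.04% ± 0.70 in buffer-only (SD, n = 3).

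Other buffer-listed clusters lay in named brain genes and a pseudogene. In Dlgap1, which encodes a scaffold of the postsynaptic density, a 3′ UTR site (position 70819514 of chromosome 17) was edited in 52.0%, 53.2% and 46.0% of reads with antibody, 53.8%, 54.8% and 55.6% with enzyme alone and 54.7%, 58.6% and 58.3% with buffer alone. The RBFOX2-INSCRIBE libraries were the lowest and the buffer-only libraries the highest, apart from 1 buffer-only library that fell among the enzyme-only libraries. The Hjurp site (3′ UTR, position 88265034 of chromosome 1) lies in the gene of a chaperone for the centromeric histone. It had means of 63.8% ± 2.47, 54.0% ± 6.72 and 62.4% ± 5.81 (SD, n = 3) at a cover of 34 to 75 reads. There the antibody libraries lay above the enzyme-only libraries, and buffer-only overlapped both. Pisd-ps1, a pseudogene of phosphatidylserine decarboxylase, had 20.5% ± 0.88, 18.5% ± 0.92 and 19.3% ± 1.82 (SD, n = 3). Antibody libraries again lay above enzyme-only, by little, and buffer-only overlapped both.

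Snhg14, a long non-coding RNA that hosts small nucleolar RNAs of an imprinted region, held the most shared clusters of any gene, 15, of which 12 were buffer-listed. Its leading site was edited in 7.91% ± 0.10, 7.95% ± 0.65 and 7.55% ± 0.90 of reads (SD, n = 3). The 101 nt around it has 98 near-identical copies elsewhere in the assembled chromosomes, of which 95 have C at the matching position and 2 have T. Nova1, which encodes a neuronal splicing factor, had an intronic cluster of 510 nt whose leading site was edited in 19.1% ± 4.44, 31.8% ± 5.99 and 19.3% ± 4.65 of reads (SD, n = 3) at a cover of 31 to 69. Of the 20 near-identical copies of that site, 6 have T.

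**Figure D2:**
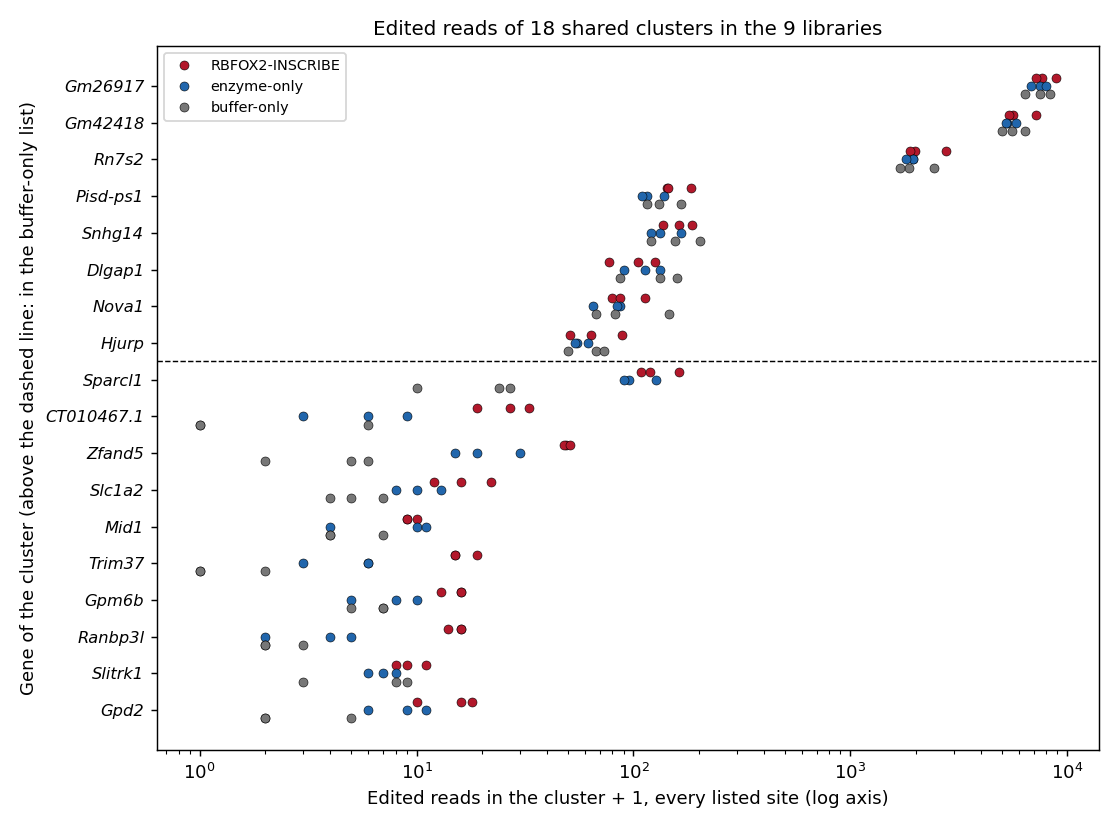
Edited reads plus 1 from every listed site (x axis, log scale) in each of the 9 libraries (points, coloured by group) for the 18 shared clusters with the most edited reads by the naming rule (y axis, gene of the cluster). Above the dashed line the 3 colours lie together from Gm26917 (6354 to 8843 edited reads) down to Hjurp (49 to 88), and below it buffer-only points lie to the left of RBFOX2-INSCRIBE points in most clusters, as in Sparcl1 (9 to 26 against 107 to 162), with Mid1 and Slitrk1 closest together.

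The RBFOX2-INSCRIBE and buffer-only values of single clusters stayed close to equality over the whole range of buffer-listed clusters. At the 167 sites that passed the filter in all 9 libraries, the mean edited percent of RBFOX2-INSCRIBE and buffer-only lay within 1.5-fold of each other at 143, above it at 12 and below it at 12. The lowest group mean at these sites was 1.31% and the highest 69.6%. Their median edited percent was 11.8% in RBFOX2-INSCRIBE, 9.92% in enzyme-only and 12.3% in buffer-only.

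**Figure D3:**
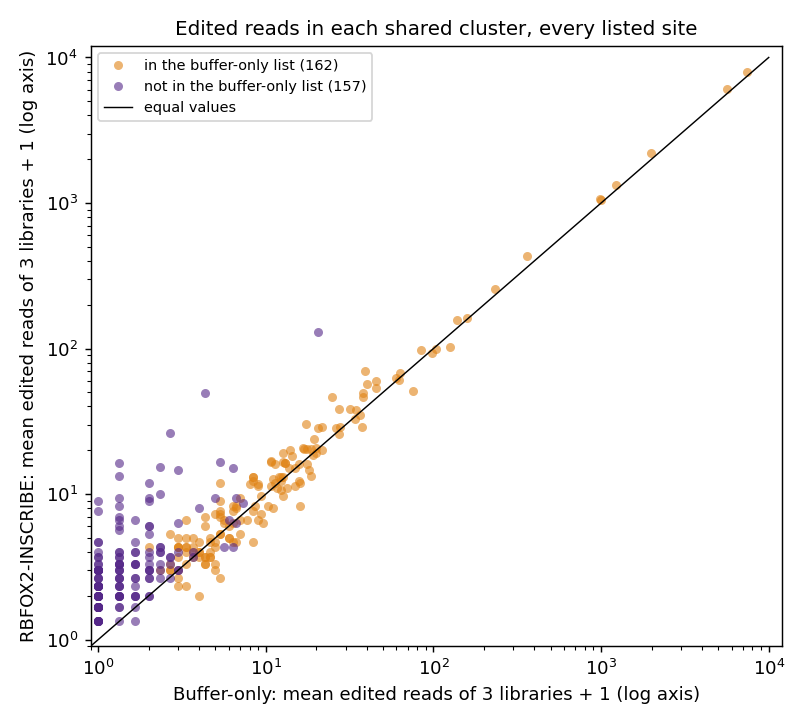
Mean edited reads plus 1 over the 3 buffer-only libraries (x axis, log scale) and the 3 RBFOX2-INSCRIBE libraries (y axis, log scale), from every listed site, for each of the 319 shared clusters. Orange points, the 162 buffer-listed clusters, follow the line of equal values over the whole range, and purple points, the 157 others, lie mostly above it at low counts, with Sparcl1 as the highest purple point.

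Sparcl1, which encodes a matrix protein secreted by astrocytes, held the cluster with the most edited reads outside the buffer-only list (chr5:104079397-104079501, minus strand, 3′ UTR). Site 1 (position 104079485) was edited in 66 of 1391, 59 of 1244 and 61 of 1073 reads with antibody and in 58 of 1101, 71 of 1186 and 48 of 1008 with enzyme alone. With buffer alone it was edited in 5 of 1409, 8 of 1122 and 5 of 854 reads, entries that failed the filter. The means were 5.06% ± 0.54, 5.34% ± 0.62 and 0.551% ± 0.18 (SD, n = 3). The 6 libraries with enzyme overlapped and all lay above the 3 without it, at a cover of the same order. Astrocyte markers were also lower in the buffer-only libraries (221 to 340 edited reads against 439 to 654), and their part in this difference was not tested.

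Sparcl1 sites 2 and 3 (positions 104079423 and 104079408) were less edited. Site 3 had means of 1.48% ± 0.46, 0.863% ± 0.58 and 0.139% ± 0.064 (SD, n = 3), and site 2 had 31, 6 and 21 edited reads with antibody, 6, 12 and 12 with enzyme alone and 7, 9 and 1 with buffer alone, at a cover of 868 to 1414. All 3 sites follow A, and the cluster holds a UGCAUG. Site 1 lies 46 nt before it, site 2 lies 11 nt after it and site 3 26 nt after it. With filtered sites alone the cluster had 118, 76 and 82 edited reads with antibody, 58, 97 and 60 with enzyme alone and 0 in each buffer-only library, whereas every listed site gave 23, 26 and 9 in buffer-only.

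Further clusters outside the buffer-only list had fewer reads, and values here count every listed site. In Zfand5, which encodes a zinc-finger protein, a 390-nt 3′ UTR cluster had 48, 47 and 50 edited reads with antibody, 14, 29 and 18 with enzyme alone and 5, 4 and 1 with buffer alone. The 3 groups did not overlap there, but the overlap with an enzyme-only cluster was only 45 of the 390 nt. Counting over the whole RBFOX2-INSCRIBE cluster favours the antibody libraries. The Trim37 cluster, in the 3′ UTR of a ubiquitin ligase gene, had 14, 14 and 18, then 5, 2 and 5, then 1, 0 and 0. Its overlap with an enzyme-only cluster was 45 of 90 nt. In Gpd2, the mitochondrial glycerol-3-phosphate dehydrogenase gene, the counts were 9, 17 and 15, then 5, 10 and 8, then 1, 4 and 1, and the libraries with antibody overlapped those with enzyme alone.

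Not every named cluster of this class was low in buffer-only. The Slitrk1 site, in the coding sequence of a synaptic adhesion protein, was edited in 3.42% ± 0.39 of reads with antibody, 2.07% ± 0.65 with enzyme alone and 1.97% ± 0.78 with buffer alone (SD, n = 3), and the last 2 groups overlapped. Gpm6b, which encodes a membrane glycoprotein of neurons and glia, gave 2.42% ± 0.32, 1.41% ± 0.21 and 1.39% ± 0.36 (SD, n = 3). The Mid1 cluster, in the 3′ UTR of a ubiquitin ligase gene on the X chromosome, had 9, 8 and 8 edited reads, then 9, 10 and 3, then 6, 3 and 3. Of the 10 near-identical copies of its leading site, 9 have T at the matching position.

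CT010467.1, annotated as ribosomal RNA, gave the second most edited reads outside the buffer-only list and lies opposite the Gm42418 cluster. Its cluster (chr17:39848229-39848288, minus strand) had 32, 26 and 18 edited reads with antibody, 8, 5 and 2 with enzyme alone and 5, 0 and 0 with buffer alone. The cover of its leading site was 40 to 54 reads with antibody and 6 to 12 with enzyme alone, against 7666 to 11136 for the plus-strand Gm42418 site. The edited percent was 52.5% ± 10.8 with antibody and 48.6% ± 14.6 with enzyme alone (SD, n = 3), so the antibody libraries had the higher cover while the edited percents overlapped.

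Many single sites of shared clusters recurred across libraries. The 319 clusters held 1889 filtered sites over the 9 libraries, of which 51.5% were present in 1 library and 8.84% in all 9. Those 167 sites lay in 123 clusters, all buffer-listed, and carried 96.2% of the edited reads of shared clusters. With every listed site counted, 303 sites were present in all 9 libraries, 297 of them in buffer-listed clusters. Of the 878 sites in clusters outside the buffer-only list, 63.3% were present in 1 library and 3.19% in 7 to 8. In the other 4858 RBFOX2-INSCRIBE clusters 81.1% of sites were present in 1 library and 0.175% in 7 to 8.

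**Figure D4:**
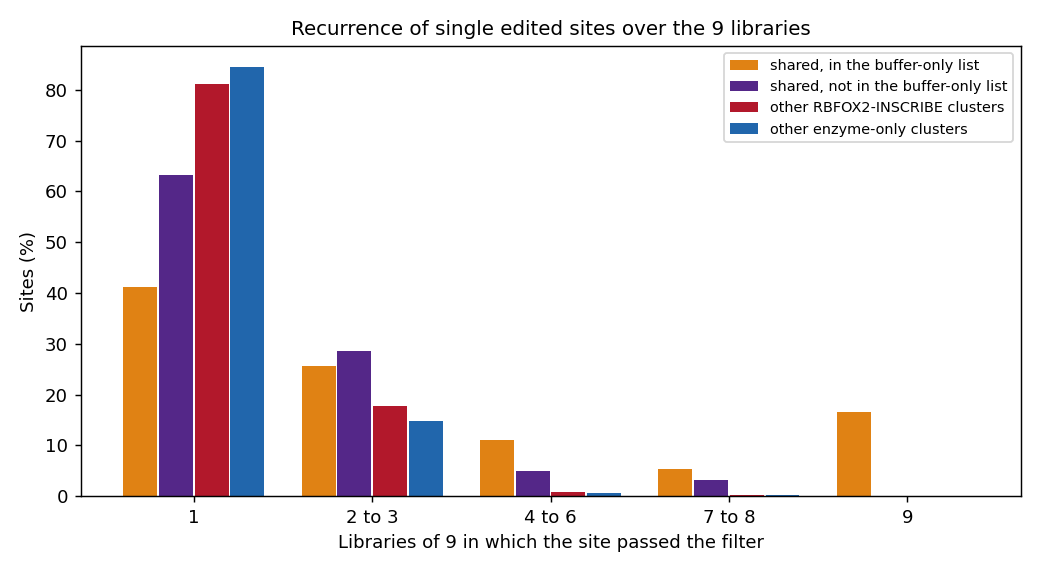
Share of filtered sites (%, y axis) by the number of libraries, of 9, in which the site passed the filter (x axis) for 4 kinds of cluster (colours). The bars at 9 libraries hold 16.5% of sites in buffer-listed clusters and none in the other kinds, and the bars at 1 library hold 41.2%, 63.3%, 81.1% and 84.4% in the order of the legend. The choice and split of the clusters favour recurrence in the shared ones, most of all in buffer-listed ones.

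Near-identical copies were common around these sites. A copy is a match of at least 95% identity over at least 90% of the 101 nt centred on a site, elsewhere in the assembled chromosomes. At least 1 site had a copy in 104 of 162 buffer-listed clusters (64.2%, Wilson interval from 56.6%) and in 28 of 157 others (17.8%, from 12.6%), beside 5.93% of the other RBFOX2-INSCRIBE clusters and 5.97% of the other enzyme-only clusters. Of the 167 sites present in all 9 libraries, 39 (23.4%) had a copy with T at the matching position and 62 had no copy at all. Of the 1889 sites together, 6.67% had such a T copy. Which reads came from a copy was not tested.

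Pseudogenes hosted a larger share of buffer-listed clusters than of the others, and 3′ UTRs a larger share of the others. Of the 312 clusters that lie in 1 gene on their strand, 46 of 157 buffer-listed clusters (29.3%) and 13 of 155 others (8.39%) were in annotated pseudogenes, beside 0.533% and 0.784% of the other clusters of the RBFOX2-INSCRIBE and enzyme-only lists. Buffer-listed clusters were centred in introns (79, 48.8%), non-coding exons (34), 3′ UTRs (25), coding sequence (22) and 5′ UTRs (2). The others were centred in 3′ UTRs (76, 48.4%), introns (47, 29.9%) and elsewhere. Among the other RBFOX2-INSCRIBE clusters 45.9% were in introns and 29.5% in 3′ UTRs, and among the other enzyme-only clusters 25.5% and 37.6%. Median read depth in the list was 75.2 for buffer-listed clusters, 46.9 for the others, 52.2 for the other RBFOX2-INSCRIBE clusters and 46.8 for the other enzyme-only clusters. These shares have no test, since clusters are not replicates.

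Shared clusters crowded into a few places. Chromosome 8 held 58 of 319 (18.2%), beside 277 of 4858 other RBFOX2-INSCRIBE clusters (5.70%) and 253 of 4218 other enzyme-only clusters. Between 20 and 21 Mb of it lay 34, of which 30 were buffer-listed, in 6 genes that include the pseudogenes 6820431F20Rik (12 clusters), 2610005L07Rik (10) and Gm21811 (4). Gm6483, another pseudogene of chromosome 8, held 8, Hjurp on chromosome 1 held 10 and Gm26917 held 7. In 6820431F20Rik the clusters had 86, 140 and 96 edited reads with antibody, 83, 103 and 116 with enzyme alone and 101, 104 and 82 with buffer alone, and in 2610005L07Rik 121, 150 and 86, then 97, 121 and 92, then 134, 122 and 80. The groups overlapped in both. In Gm6483 they had 38, 39 and 31, then 25, 45 and 37, then 37, 28 and 39, also overlapping. In all, 211 genes hosted a shared cluster, 175 of them only 1.

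UGCAUG, written TGCATG in DNA and searched on the transcribed strand, was in 17 of 319 shared clusters (5.33%, Wilson interval 3.35% to 8.37%). It was in 1 of 162 buffer-listed clusters (0.617%) and in 16 of 157 others (10.2%, from 6.37%). At the same cluster lengths, the share among other RBFOX2-INSCRIBE clusters was 11.2% for the first class and 12.2% for the second, and among other enzyme-only clusters 3.07% and 2.44%. These shares cover only lengths found there. Of the 157, 156 had a length found among the other RBFOX2-INSCRIBE clusters, and 16 of them (10.3%) held the motif. For the other enzyme-only clusters it was 13 of 151 (8.61%). Within 100 nt on either side of the cluster the motif was found for 13 of 162 and 32 of 157 (20.4%), beside 1070 of the 4858 other RBFOX2-INSCRIBE clusters and 8.13% of the other enzyme-only clusters. Of the 17 clusters, 13 were in 3′ UTRs and 4 in introns.

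Of the 5 with the most edited reads, the 4 outside the buffer-only list are shown as 30 nt with the motif in capitals.
Sparcl1 motif (chr5:104079422-104079451, minus strand): aaaacatttgttTGCATGtgagagaagaca
Zfand5 motif (chr19:21281471-21281500, plus strand): actgtacccttcTGCATGgaaaatcataac
Ranbp3l motif (chr15:9016160-9016189, plus strand): atatactacaaaTGCATGatacacacgcat
Gpd2 motif (chr2:57370454-57370483, plus strand): ggacacacttgcTGCATGttctcttacttc

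The Gm21811 cluster, in an intron of a pseudogene, is the buffer-listed one. Its edited reads from every listed site were 9, 13 and 8 with antibody, 5, 7 and 7 with enzyme alone and 12, 14 and 6 with buffer alone. Buffer-only overlapped both other groups, and the antibody libraries lay just above enzyme-only. Ranbp3l, which encodes a Ran-binding protein, had 15, 13 and 15, then 1, 4 and 3, then 2, 1 and 1, with the antibody libraries above all others. Its overlap with an enzyme-only cluster was 30 of 120 nt, so counting over the RBFOX2-INSCRIBE cluster favours that order.

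The base before the edited C is described for the edits inside the clusters. These are the edits that chose and split the clusters, so their shares have no test. A or U stood before 62.4%, 59.5% and 68.5% of filtered sites in RBFOX2-INSCRIBE, 60.5%, 59.0% and 63.3% in enzyme-only and 53.1%, 58.2% and 51.0% in buffer-only. The groups with enzyme overlapped, and both lay above buffer-only. The means were 63.5% ± 4.63, 60.9% ± 2.17 and 54.1% ± 3.70 (SD, n = 3). Counted by edited reads in place of sites, the shares were 13.3% to 14.6%, 12.9% to 13.2% and 11.6% to 13.1%. By that count enzyme-only overlapped buffer-only.

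The same shares were taken by class of cluster. In buffer-listed clusters A or U stood before 55.4% to 58.8% of sites with antibody, 55.6% to 60.8% with enzyme alone and 51.6% to 59.7% with buffer alone. In the others the shares were 72.5%, 67.1% and 80.3%, then 65.6%, 66.1% and 68.5%, then 38.0%, 49.2% and 47.1%. Means there were 73.3% ± 6.60, 66.7% ± 1.55 and 44.8% ± 5.91 (SD, n = 3). The buffer-only shares rest on 51 to 71 sites a library, those of the other groups on 180 to 365, and the buffer-only list set which clusters are in this class. Among the other RBFOX2-INSCRIBE clusters the means were 73.7%, 66.7% and 53.5%.

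**Figure D5:**
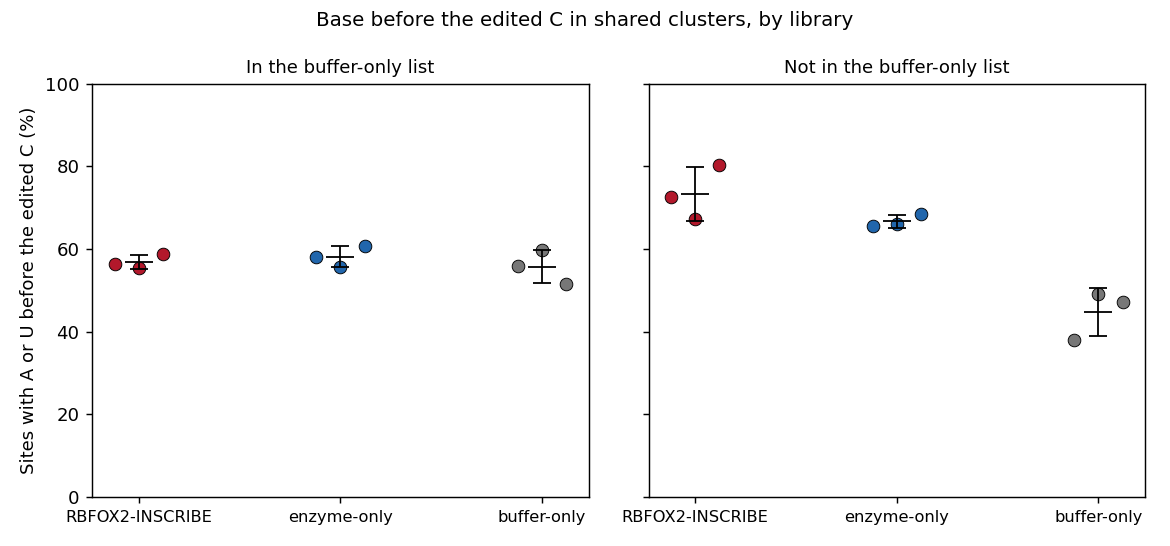
Share of filtered sites with A or U before the edited C (%, y axis) in each library (points) of the 3 groups, with mean and SD (black, n = 3), in buffer-listed clusters (left) and in the other shared clusters (right). On the left all 9 libraries lie at 51.6% to 60.8%, and on the right the buffer-only libraries (38.0% to 49.2%) lie below enzyme-only (65.6% to 68.5%) and RBFOX2-INSCRIBE (67.1% to 80.3%).

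Within the clusters outside the buffer-only list, the share was also taken by recurrence. A or U stood before 66.9% of the sites present in 1 library, 79.3% of those in 2 to 3, 74.4% of the 43 in 4 to 6 and 35.7% of the 28 in 7 to 8. In buffer-listed clusters the shares were 49.2% at 1 library, 59.8% at 4 to 6, 67.3% at 7 to 8 and 57.5% at the 167 sites in all 9.

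Editing of the host genes was tested outside the clusters, on edited reads that lie in none of the 3 lists, since these did not choose the members. Of 6271 genes tested with edgeR in 1 fit of the 9 libraries, 0.494% were called higher and 0% lower in RBFOX2-INSCRIBE than in enzyme-only (Benjamini-Hochberg adjusted p under 0.05). Of the 211 host genes 164 were tested, and 1 was called higher and 0 lower. At an unadjusted p under 0.05 there were 24 host genes (14.6%) and 10.6% of all genes, and DESeq2's Wald test called 0 of the 41 host genes to which it gave an adjusted p. The median log2 change was 0.04 over the host genes and -0.01 over all genes.

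The called gene was Trim37, whose edited reads outside the clusters were 57, 38 and 31 with antibody, 15, 20 and 8 with enzyme alone and 15, 13 and 6 with buffer alone. Antibody libraries lay above all others. The log2 change was 1.37 ± 0.30 (SE, edgeR adjusted p = 0.00951). DESeq2's Wald test gave Trim37 no adjusted p. Striatal neuron markers were also higher with antibody (541 to 735 edited reads against 306 to 365 with enzyme alone), and their part in this call was not tested. The call was lost without RBFOX2-INSCRIBE replicate 1 (1.15, edgeR adjusted p = 0.124), without enzyme-only replicate 1 (1.41, 0.0665) and without enzyme-only replicate 3 (1.12, 0.0892).

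Between enzyme-only and buffer-only, which again share the enzyme-only libraries with the comparison above, 0.159% of all genes were called higher and 0.0957% lower by edgeR. Among the 164 host genes 2 were higher and 1 lower. At an unadjusted p under 0.05 there were 27 host genes (16.5%) and 9.36% of all genes, and the median log2 change over host genes was 0.09.

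Rab3c, which encodes a GTPase of synaptic vesicles, rose by 1.28 ± 0.29 on the log2 scale (SE, edgeR adjusted p = 0.0275), from 16, 8 and 13 edited reads with buffer alone to 41, 42 and 37 with enzyme alone, and it had 68, 46 and 44 with antibody. Purg, a gene of the purine-rich element binding family, rose by 0.89 ± 0.20 (SE, edgeR adjusted p = 0.0275), from 36, 52 and 45 to 117, 82 and 133. Dlgap1 fell by 0.56 ± 0.12 (SE, edgeR adjusted p = 0.0219) relative to library totals, with 381, 234 and 263 edited reads in buffer-only and 230, 274 and 285 in enzyme-only, which overlap before scaling. The shared clusters of Purg and Rab3c are outside the buffer-only list and that of Dlgap1 is buffer-listed. DESeq2's Wald test gave Purg and Rab3c no adjusted p. Each of the 3 calls was lost without buffer-only replicate 1 (edgeR adjusted p = 0.185 to 0.406), without enzyme-only replicate 1 (0.0837 to 0.103) and without buffer-only replicate 3 (0.0523 for each). Without enzyme-only replicate 2 the edgeR adjusted p was 0.0858 for Dlgap1 and 0.0945 for Rab3c, without enzyme-only replicate 3 it was 0.181 for Purg and without buffer-only replicate 2 it was 0.124 for Rab3c.

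By the fixed gene lists, host genes were spread over many functions with few members each. Of all 6271 genes tested outside the clusters, 2.62% were hosts, and the same share was 28.6% of 14 astrocyte genes, 20.7% of 29 presynaptic genes, 11.4% of 35 channel genes, 10% of 40 RNA-binding protein genes and 5.88% of 51 adhesion and scaffold genes. It was 18.2% of 11 long non-coding RNAs, 14.3% of 7 myelin genes and 9.09% of 33 glutamate and GABA receptors. Cytoskeleton and motor genes had 6.67% of 30, and calcium signalling genes 3.45% of 29. Among the tested markers it was 40% of 5 for neurons, 33.3% of 3 for oligodendrocytes and 25% of 4 for astrocytes. The other lists and marker types had no tested hosts. A cluster can be called only where reads are many, and the part of read number in these shares was not tested. Of 19 astrocyte genes 4 were hosts, with 9 clusters, led by Slc1a2 (5 clusters), the main glutamate transporter of astrocytes, then Cpe (2), a carboxypeptidase, and Sparcl1. The Slc1a2 clusters had 155, 85 and 147 edited reads with antibody, 89, 127 and 91 with enzyme alone and 77, 61 and 59 with buffer alone, and the libraries with enzyme overlapped each other. They lay above the 3 without it in these counts, but not relative to library totals, where the lowest library with antibody had 0.025% of its filtered edited reads and the buffer-only libraries 0.0293% to 0.0305%. The 2 Cpe clusters, both buffer-listed, had 58, 93 and 50, then 70, 84 and 60, then 55, 44 and 28. Antibody libraries overlapped both other groups, and enzyme-only lay above buffer-only. None of the 14 astrocyte genes tested outside the clusters passed the test in either comparison.

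Of 33 presynaptic genes 6 were hosts. They include Snap25, a SNARE protein of vesicle fusion, whose 2 clusters outside the buffer-only list had 9, 11 and 17 edited reads with antibody, 3, 1 and 1 with enzyme alone and 0, 1 and 1 with buffer alone. The antibody libraries lay above all others, which counting over RBFOX2-INSCRIBE coordinates favours against enzyme-only. Unc13b, a vesicle-priming protein gene, had 8, 9 and 9, then 11, 10 and 8, then 11, 11 and 13 in its buffer-listed cluster, and Syt1, the calcium sensor of release, held 2 clusters with 1 to 9 edited reads per library. Of 48 splicing factors and other RNA-binding proteins 4 were hosts, with 6 clusters, among them those of Nova1 and Celf2, and of 36 voltage-gated channel genes 4, with 6 clusters led by Kcnd2, Kcnip4 and Kcnq5. In Kcnd2, a potassium channel gene, the 2 clusters had 14, 9 and 10, then 7, 2 and 3, then 10, 2 and 5.

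Hosts also came from synaptic adhesion and scaffold genes (3 of 51: Dlgap1, Lsamp and Pcdh9), glutamate and GABA receptors (3 of 34, among them Gria4) and calcium signalling (1 of 32: Slc8a1). Cytoskeleton and motor genes had 3 hosts (Dclk1, Klc1, Tuba1b), long non-coding RNAs 2 (Snhg14 and Snhg11, with 16 clusters), myelin and oligodendrocyte genes 1 (Mobp) and known APOBEC1 targets 1 (B2m, with 1 to 3 edited reads in each library). The RBFOX family, the 14-3-3 and heat shock proteins, glycolysis genes and mitochondrial transcripts had 0 hosts, and 12 of the 15 mitochondrial transcripts had no edited read in any library. Outside the clusters, genes of these lists that passed the edgeR test for RBFOX2-INSCRIBE over enzyme-only were 4 of 51 adhesion and scaffold genes, 2 of 35 channels, 2 of 29 calcium signalling genes and 2 of 11 long non-coding RNAs, none of them among the host genes, beside 0.494% of all genes. For enzyme-only over buffer-only, 1 of 40 RNA-binding protein genes and 1 of 11 long non-coding RNAs were higher, beside 0.159% of all genes. Lower were 2 of 51 adhesion and scaffold genes, beside 0.0957% of all genes. Of these called genes, Dlgap1 (lower) was the only host.

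The clusters nearest to the overlap rule were weak on both sides of it. The smallest overlap was 15 nt, in 30 clusters of which 1 was buffer-listed, and the median of their mean edited reads was 1.17 with antibody, 0.667 with enzyme alone and 0 with buffer alone. Just outside, 19 other RBFOX2-INSCRIBE clusters touched an enzyme-only cluster without overlap, with medians of 0.667, 0.333 and 0. The 2 lists gave the same start and end for 89 of 162 buffer-listed clusters and for 32 of 157 others. After subtraction of buffer-only clusters by the authors, 27 of the 162 and all 157 were still in the cleaned RBFOX2-INSCRIBE list.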

How the data were processed

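The 9 mouse brain libraries, in 3 groups of 3, were sequenced to read C-to-U edits. The authors trimmed reads (cutadapt), removed repeat reads, aligned to mm10 with STAR 2.5.2, called sites with SAILOR, which drops known variants, and clusters with FLARE (rate 0.1), and intersected replicates with bedtools. Each confident list equals the replicate 3 clusters that overlap a replicate 1 cluster that itself overlaps a replicate 2 cluster, so that 4365 of 5177, 3748 of 4542 and 1737 of 2092 rows overlap a call of every replicate directly. The methods describe a stranded kit for these libraries; the labels list 2 kits. The deposited site lists give counts of edited and covering reads and a confidence score. The deposited cluster tables give counts, edited fractions, the mean read depth (signal) and a score, and the deposited confident lists give depth (signal) and other values such as window p-values. 0 columns of samples were left unused.

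The build was checked: all 34607 listed sites inside clusters are C in GRCm38. Genes came from GENCODE annotation of GRCm38, copies from blastn 2.17.0. Edited read counts per gene, outside all 3 confident lists, were tested with edgeR 4.0.16 (quasi-likelihood, TMM, filterByExpr, 9 libraries, R 4.3.3) and DESeq2 1.42.0 as an alternative, after tests on simulated data. The exact permutation test planned for A/U context is not given, since those sites chose the clusters. Replicates of a group differed beyond sampling noise (chi-square over degrees of freedom 1.36 to 1.79), so none was merged.

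Clusters were named by edited reads in the 6 libraries with enzyme: the top 8 buffer-listed, the top 10 others and the top 5 with UGCAUG, at most 1 per gene, plus the 6 genes with most clusters, called host genes (mean edited reads of 20 or more) and up to 3 hosts per list. Some items that this rule names are not reported here. Members, lists and tests were chosen with earlier results of these data known.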

Additional observations from a re-analysis of the deposited data

How the results depend on the processing

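The number of shared clusters was 257 where at least 50% of a cluster had to be overlapped, 324 from the enzyme-only side, 319 on either strand and 293 where a call of every replicate was required (chosen after seeing the data). It was 183 between the cleaned lists. Buffer-listed clusters numbered 16 of those 183 and 150 to 167 under the other settings. Lists rebuilt from 2 replicates gave 1229 to 1302 shared clusters, of which 225 to 266 were buffer-listed. UGCAUG was in 14.1% of shared clusters with 100 nt on each side, in 9.25% of those kept in the cleaned lists and in 3.50% at 50% overlap. Without the clusters of Gm26917, Gm42418 and Rn7s2 (chosen after seeing the data), shared clusters took 0.924% of RBFOX2-INSCRIBE edited reads in place of 7.10%. Host genes called for RBFOX2-INSCRIBE against enzyme-only numbered 5 with all sites of a gene, 5 with every listed site, 0 with DESeq2's Wald test, 2 with no filter on low counts, and 0 to 2 with 1 replicate left out. DESeq2's Wald test gave Trim37 no adjusted p. For enzyme-only against buffer-only they numbered 13 with all sites, 11 with every listed site, 2 with DESeq2's Wald test (Dlgap1 and Kalrn, both lower, of 33 host genes given an adjusted p), and 0 to 2 with 1 replicate left out. Sites inside the clusters chose them, so the counts with all sites are no support. The counts with every listed site also leave out sites inside the 3 lists, and they add sites that failed the filter. A/U shares kept their direction under all 11 alternatives of each comparison (0.00651 to 4.54 and 5.25 to 8.85 percentage points with 1 replicate left out). The value of 0.00651 is that without RBFOX2-INSCRIBE replicate 3. With edited reads in place of sites the differences were 1.02 and 0.893 points. The replicate block, another of the 11, leaves the differences unchanged by construction.

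With the replicate number as a block, 1 and 3 host genes were called, as without it, and the A/U differences stayed at 2.55 and 6.80 points, with no test since those sites chose the clusters. Same-numbered libraries correlated at -0.054 to 0.088, and were not taken as pairs, and 3 of 9 libraries correlated best with their own number. Depth limits the 157 clusters outside the buffer-only list: at a median of 0 to 2 edited reads a library, the order of groups in most single clusters was not detectable.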
